A study of Mus musculus with 12 samples.

Results

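The Trav9 family is a group of variable segments of the mouse T cell receptor alpha locus (Tcra). Its members here are the rows named Trav9-1, Trav9-2, Trav9-3 and Trav9-4 and the rows Trav9D-1, Trav9D-2, Trav9D-3 and Trav9D-4. They were chosen by name alone, with no measured value in the rule, though earlier results of these data were known. They are 8 of the 85 Trav segments found in at least 1 of the 12 Tcra repertoire tables. They are also 8 of the 79 listed in all of them. All 8 were listed above 0 in every table, and none was lost to a filter.

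The tables describe Tcra transcripts of CD3e-negative thymocytes carrying both CD4 and CD8 (DP thymocytes, before selection) from mice aged 4 to 6 weeks. The mice were homozygous for a knockout of DPASE (KO) or for the wild-type element (WT). DPASE is, as background, a regulatory element that acts on Rag1 and Rag2, the recombinase genes of developing lymphocytes. All groups, WT included, were on C57BL/6J with Tcra-Tcrd loci of strain 129 that carried TcrdCreER, a Cre recombinase that tamoxifen activates in cells using the Tcrd locus, and with the reporter Rosa26ZsG, which the labels give as ZsG/ZsG in 1 field and ZsG/+ in another. The 6 groups were KO and WT at steady state (all CD3e-negative DP cells), KO and WT at 24 h, and KO and WT at 48 h after an intraperitoneal injection of 1 mg of tamoxifen. At 24 h and 48 h only cells positive for ZsGreen, the product of the reporter, were sorted. Each group had 2 libraries. The labels mention 2 mice a group but leave unsaid whether a library is 1 mouse, so the p-values measure the spread between libraries, which may be technical.

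A Tcra variable exon forms when the recombinase joins a Trav segment to a Traj segment. On 1 allele the joining can repeat, and each later round uses a Trav segment farther upstream and a Traj segment farther downstream. Traj segments are numbered downwards along the array, from 5′ to 3′, so a high number marks its start, where first rearrangements fall. In the mouse, part of the Trav array is duplicated: a name with D marks the copy that lies farther from the Traj array, and the same number without D is called its counterpart here.

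Most members are close in sequence, apart from Trav9-1 and Trav9D-1, which resemble each other and stand off from the rest. In the GENCODE M21 annotation of the C57BL/6J reference (GRCm38), 7 of the 8 names were matched, with Trav9-3 as the exception. All 7 are variable genes on the plus strand of chromosome 14, each with a leader exon and a variable exon. They follow each other in the order of the tables' rows: Trav9D-1 at chr14:52792316-52792777, Trav9D-2 at chr14:52892186-52892618, Trav9D-3 at chr14:52920443-52921112, Trav9D-4 at chr14:52983201-52983860, Trav9-1 at chr14:53488045-53488567, Trav9-2 at chr14:53590857-53591514 and Trav9-4 at chr14:53676141-53676630. The libraries came from a strain 129 locus, and the sources used here do not give the build behind the tables, so these positions describe the printed sequences and not the alignments. The coding stretches of Trav9D-1 and Trav9-1 differed at 2 of 337 bases (99.4% identity). Those of Trav9D-2 and Trav9-2 differed at 5 of 340 bases (98.5%), and Trav9D-4 and Trav9-4 at 8 bases with a gap of 30. Against the other members, Trav9-1 and Trav9D-1 were 79.5% to 81.9% identical, while Trav9D-2, Trav9D-3, Trav9D-4, Trav9-2 and Trav9-4 were 97.1% to 98.5% identical to each other. The reference also annotates Trav9n-1 to Trav9n-4, copies that were not analysed here; Trav9n-2 and Trav9D-2 were identical over 340 bases, and so were Trav9n-3 and Trav9D-3.

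The last 80 coding bases of the 7 matched members are printed because this is the end that joins the Traj segment. Capitals mark the 9 positions at which they are not all alike.
Trav9D-1: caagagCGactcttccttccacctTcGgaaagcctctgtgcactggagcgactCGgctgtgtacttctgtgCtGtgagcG
Trav9D-2: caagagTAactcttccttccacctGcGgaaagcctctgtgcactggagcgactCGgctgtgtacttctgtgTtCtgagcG
Trav9D-3: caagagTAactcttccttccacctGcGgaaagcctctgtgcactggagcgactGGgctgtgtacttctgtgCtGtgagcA
Trav9D-4: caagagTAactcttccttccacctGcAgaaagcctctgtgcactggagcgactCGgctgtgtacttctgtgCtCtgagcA
Trav9-1: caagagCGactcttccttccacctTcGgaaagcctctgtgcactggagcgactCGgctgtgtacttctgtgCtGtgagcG
Trav9-2: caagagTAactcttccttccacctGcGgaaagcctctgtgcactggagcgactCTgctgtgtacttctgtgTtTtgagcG
Trav9-4: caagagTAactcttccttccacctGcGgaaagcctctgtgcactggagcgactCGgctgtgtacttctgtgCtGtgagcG

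The tails of Trav9D-1 and Trav9-1 were the same, so that pair can be told apart only by bases farther upstream. Bases 159 to 264 of the coding stretch of both are printed, counted from 1 at its 5′ end, with the 2 differing bases in capitals.
Trav9D-1: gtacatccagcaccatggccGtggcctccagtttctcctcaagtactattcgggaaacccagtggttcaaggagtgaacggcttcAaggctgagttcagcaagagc
Trav9-1: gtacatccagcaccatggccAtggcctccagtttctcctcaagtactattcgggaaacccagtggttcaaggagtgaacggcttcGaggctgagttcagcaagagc

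Whether the reads reached those bases, and how the authors assigned reads that match more than 1 copy, the sources used here do not say. The split between a D copy and its counterpart, and between members 2, 3 and 4, is therefore uncertain. The family total does not depend on that split within the family.

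The 8 members differed in how much of the repertoire they took. The share of a segment is the sum over its Traj partners as a percent of the table's own total, which makes it relative: it says nothing of the number of cells or of RNA per cell. Averaged over the 6 group means, Trav9-4 had the highest share of the family at 1.35%, ahead of Trav9-3 at 1.03%, Trav9-2 at 0.484%, Trav9-1 at 0.450%, Trav9D-3 at 0.399%, Trav9D-4 at 0.305%, Trav9D-1 at 0.238% and Trav9D-2 at 0.234%. These levels rank 31st, 44th, 58th, 61st, 63rd, 68th, 73rd and 74th of the 79 segments. The first steps of that order held within libraries: Trav9-4 was above Trav9-3 in 11 of 12 libraries, and Trav9-3 above Trav9-2 in 12 of 12. Trav9-2 was above Trav9-1 in 6 of 12, and each neighbouring pair among the D copies kept the order in 7 of 12. Those steps of the order thus did not hold across libraries. Between Trav9D-4 and Trav9D-1 the order turned with sampling. At steady state Trav9D-4 had group means of 0.358% in KO and 0.411% in WT, against 0.227% and 0.288% for Trav9D-1. At 24 h it had 0.0986% in KO and 0.176% in WT, against 0.172% and 0.236%. These differences between members were not tested.

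The tables are of 2 kinds, and this touches every share at 24 h and 48 h. In the 4 tables of replicate 2 at 24 h and 48 h, in both genotypes, the deposited fractions summed to 1.97 to 1.99 and 43.5% to 56.7% of the Trav-Traj pairs were at 0. In the other 8 tables the sums were 0.995 to 0.998, and 1.57% to 14.9% of pairs were at 0. The smallest share above 0 was 0.00401% to 0.00937% in the 4 tables and 0.000336% to 0.000853% in the 8. The 4 are called the coarse tables below. The number of reads is unknown. The pairs that mark other cells the gate could hold were Trav11 or Trav11D with Traj18 (invariant NKT cells) and Trav1 with Traj33 (MAIT cells). At steady state Trav11 with Traj18 took 0.0378% to 0.0457% in KO libraries and 0.0350% to 0.0462% in WT libraries. Trav1 with Traj33 took 0.0299% to 0.0430% in KO libraries and 0.0412% to 0.0503% in WT libraries, shares of the order of the leading single Trav9 pairs given further on. Trav11D with Traj18 stayed at or under 0.00498% in all 12 libraries. The part of such cells in the results was not tested. Neither the genotype nor the sort could be checked, since DPASE, Rag1, Cd4 and Cd8 have no values in such tables.

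No Trav9 segment's share passed the test between KO and WT in the fit that leaves the replicate numbers out. In the fit that pairs same-numbered libraries within a sampling, given further on, Trav9-3, Trav9-4, Trav9D-3 and Trav9D-4 passed at 48 h. There 28 of 79 segments passed (35.4%), and at 48 h that pairing cannot be told apart from the kind of table. The family as a whole took 3.72% and 3.96% of the repertoire in KO libraries at steady state, against 4.44% and 3.35% in WT libraries. The 24 h values were 3.11% and 5.40% in KO libraries and 3.11% and 6.83% in WT libraries, the higher value of each genotype being the coarse table. At 48 h both KO libraries, at 5.29% and 5.87%, were above both WT libraries, at 4.13% and 4.70%. On the log2(percent + 0.01) scale the KO minus WT difference of the family was -0.01 for steady state, -0.17 for 24 h and 0.34 for 48 h, each with an SE of 0.41. None of the 3 passed limma's test with Benjamini-Hochberg adjustment over 19 Trav families (adjusted p = 0.982, 0.970 and 0.877), where 0 of 19 families were called (0%).

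Among single members, Trav9-4 showed where the spread lies. It took 1.07% and 1.02% in KO libraries at steady state, against 1.34% and 0.788% in WT libraries. Its 24 h shares were 0.838% and 2.05% in KO libraries and 0.873% and 2.55% in WT libraries. In both genotypes replicate 2, the coarse table, was the high one, so the groups overlap and the replicates differ more than the genotypes. At 48 h the groups did not overlap, with 1.73% and 1.78% in KO libraries against 1.22% and 0.944% in WT libraries.

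Trav9-3, which lies between Trav9-2 and Trav9-4 in the row order, showed the same high replicate 2 at 24 h. It took 0.777% and 0.844% in KO libraries against 0.786% and 0.616% in WT libraries at steady state. At 24 h it took 0.780% and 1.35% in KO libraries and 0.758% and 1.86% in WT libraries. Its 48 h shares were 1.19% and 1.69% in KO libraries and 0.787% and 0.972% in WT libraries, again without overlap. Trav9-2 took 0.688% and 0.513% in KO libraries at 48 h, against 0.426% and 0.425% in WT libraries, and 0.458% and 0.454% in KO libraries at steady state, against 0.439% and 0.292% in WT libraries. Both times KO was above WT without overlap, but at 24 h the groups overlapped, with 0.437% and 0.547% in KO libraries and 0.409% and 0.725% in WT libraries. Trav9-1 was the steadiest member: its 12 shares ran only between 0.412% and 0.549%, and KO and WT libraries overlapped at all 3 samplings. Both KO libraries were above both WT libraries for 1, 0 and 3 of the 8 members at steady state, 24 h and 48 h, beside 29.1%, 5.06% and 13.9% of all 79 segments. Both were below for 1, 2 and 0 members, beside 38%, 7.59% and 6.33%.

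Among the D copies the KO mean was below the WT mean at 48 h, apart from Trav9D-4. Trav9D-3 took 0.264% and 0.566% in KO libraries at 48 h, against 0.410% and 0.953% in WT libraries, the replicates of each genotype standing farther apart than the genotypes. Trav9D-2 had 0.127% and 0.324% in KO libraries and 0.171% and 0.492% in WT libraries at that time. Compared within replicate 1 and within replicate 2, both copies were lower in KO, while the groups as a whole overlap. Trav9D-1 had 0.268% and 0.206% in KO libraries and 0.256% and 0.283% in WT libraries, and Trav9D-4 had 0.558% and 0.376% in KO libraries and 0.426% and 0.208% in WT libraries.

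**Figure D1:**
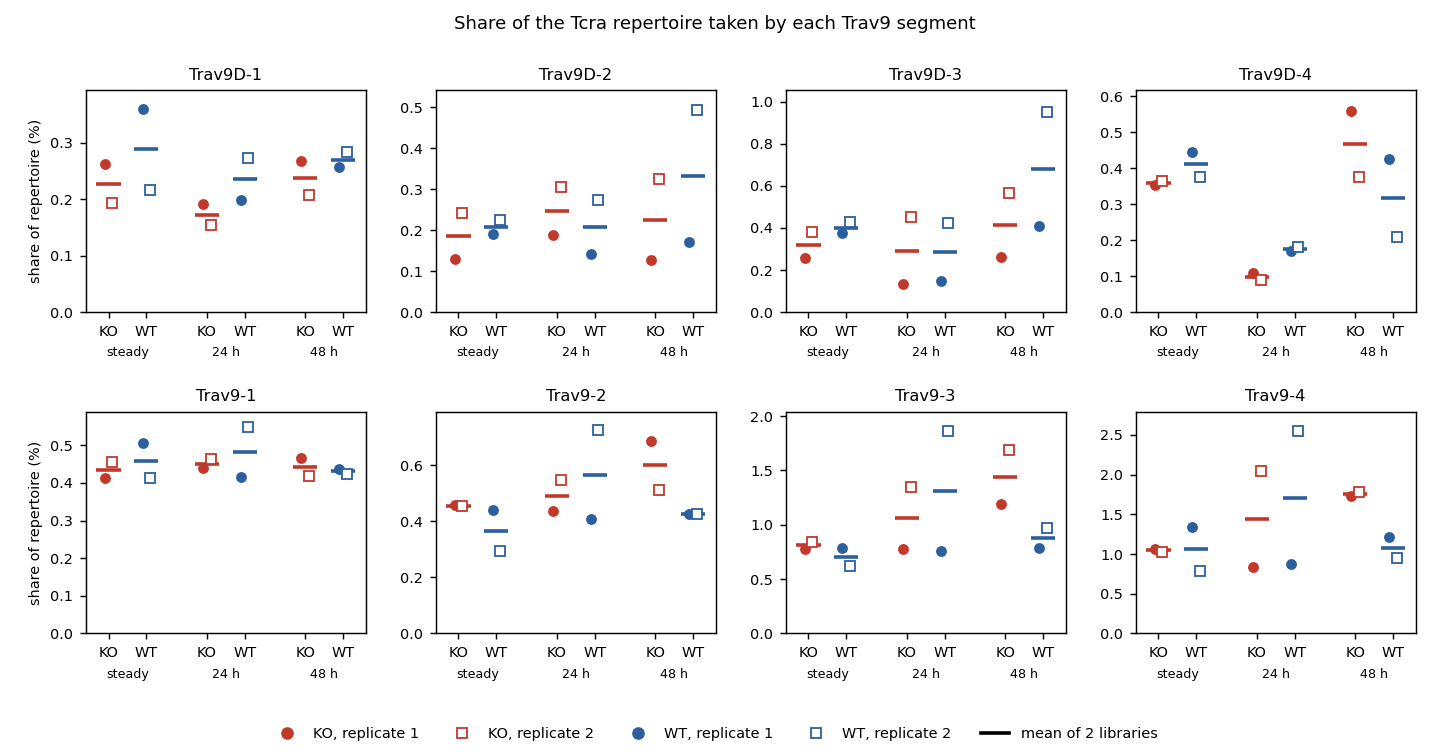
Share of the Tcra repertoire in percent (vertical axis, from 0, its own scale in each panel) of each Trav9 segment, by genotype and sampling. Points are single libraries, filled for replicate 1 and open for replicate 2, and lines are means of 2 libraries; at 24 h the open points of Trav9-3 and Trav9-4, from coarse tables, stand far above the filled ones in both genotypes, and Trav9D-4 is lowest at 24 h.

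By limma's test over all 79 Trav segments, 0 of the 8 members were called between KO and WT in any of the 3 samplings or over their mean. Of all 79 segments 0 were called there (0%). That fit shares 1 estimate of the spread per segment over the 6 groups. Replicates differed by a median of 0.122 in KO and 0.160 in WT on the log2 scale at steady state. At 24 h the medians were 1.04 and 0.979, and at 48 h 1.04 and 0.938. The steady state tests thus carry the wider spread of the later samplings. No member reached an unadjusted p under 0.05 in these 4 comparisons, while 0, 0, 1 and 5 of the 79 segments did. The member differences at 48 h ran from -0.68 (SE 0.74) for Trav9D-3 to 0.70 (SE 0.59) for Trav9-4 on the log2 scale, with a median of 0.26 against -0.08 over all 79 segments. Replicates of the 2 genotypes deviated together within each sampling. At 24 h and 48 h replicate 2 was the coarse table in both genotypes. A replicate block there is also a block by kind of table. A fit with the replicate within its sampling as a block gave other calls at 48 h. There Trav9-3 (0.69, adjusted p = 0.0362), Trav9-4 (0.70, adjusted p = 0.0447) and Trav9D-4 (0.60, adjusted p = 0.0432) were higher and Trav9D-3 (-0.68, adjusted p = 0.0310) lower in KO. These 4 of 8 stand beside 28 of 79 segments called in that fit (35.4%). Over the mean of the 3 samplings the blocked fit called Trav9D-3 alone of the family (-0.35, adjusted p = 0.0258), beside 34 of 79 (43%).

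Set against its counterpart, each D copy was the rarer of the pair by its median ratio. Trav9D-1, Trav9D-3 and Trav9D-4 had lower shares than Trav9-1, Trav9-3 and Trav9-4 in 12 of 12 libraries, and Trav9D-2 was below Trav9-2 in 11 of 12, the exception being WT replicate 2 at 48 h. The median ratio of D copy over counterpart was 0.522 for Trav9D-1, 0.445 for Trav9D-2, 0.341 for Trav9D-3 and 0.278 for Trav9D-4. This was common in the locus: of the other 29 pairs of a D copy and its counterpart, 26 had a median ratio below 1, with a median over pairs of 0.470. The 4 D copies together made up 26.9% and 29.8% of the family in KO libraries at steady state, against 30.8% and 37.1% in WT libraries. At 48 h they made up 23.0% and 25.1% in KO libraries, against 30.6% and 41.2% in WT libraries. At 24 h the shares of the family overlapped, at 19.9% and 18.5% in KO libraries and 21.2% and 16.8% in WT libraries.

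At 48 h the D copies together took 1.22% and 1.47% of the repertoire in KO libraries, against 1.26% and 1.94% in WT libraries, and the members without D took 4.07% and 4.4% in KO libraries, against 2.87% and 2.77% in WT libraries. Of the 4 pairs Trav9D-3 had the lowest KO minus WT difference. Its ratio to Trav9-3 was 0.228 and 0.340 in KO libraries at 48 h, against 0.527 and 0.981 in WT libraries, with no overlap. On the log2 scale the KO minus WT difference was -1.37 (SE 0.45), and its adjusted p over all 33 pairs of the locus was 0.161 in limma's test. For Trav9D-2 over Trav9-2 it was -0.97 (SE 0.66, adjusted p = 0.454). None of the 4 Trav9 pairs was called between KO and WT at any sampling or over their mean, as was the case for all 33 pairs (0%), of which 0, 0, 7 and 7 had an unadjusted p under 0.05. At 48 h a block by replicate is also a block by kind of table, since replicate 2 was coarse in both genotypes. With the replicate within its sampling as a block, Trav9D-3 over Trav9-3 (adjusted p = 1.20e-06) and Trav9D-2 over Trav9-2 (adjusted p = 0.000428) were called lower in KO at 48 h, beside 18 of 33 pairs (54.5%). Over the mean of 3 samplings that fit called Trav9D-2 (-0.36, adjusted p = 0.0162), Trav9D-3 (-0.58, adjusted p = 0.000297) and Trav9D-4 (-0.30, adjusted p = 0.0440), beside 23 of 33 (69.7%). At steady state the log2 ratio was lower in KO for 33 of 33 pairs, the 4 Trav9 pairs included, with medians of -0.39 for the 4 and -0.49 for the 33.

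The Traj partners of the family differed between the genotypes, as did those of the locus as a whole. Each segment's rearrangements were summarised as the mean Traj number weighted by usage, which does not depend on the segment's own share. A higher number means partners nearer the 5′ end of the Traj array. In all 3 samplings KO libraries used more 5′ partners with every member on average: the family's mean Traj number was 35.7 and 34.1 in KO libraries at steady state, against 30.9 and 29.4 in WT libraries. It was 44.9 and 46.8 in KO libraries at 24 h, against 40.4 and 42.0 in WT libraries, and 37.3 and 36.9 in KO libraries at 48 h, against 30.9 and 32.5 in WT libraries. KO and WT libraries did not overlap at any sampling.

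Trav9D-2 had the largest difference of the family at steady state and 48 h. Its mean Traj number was 30.8 and 32.1 in KO libraries at steady state, against 22.5 and 24.6 in WT libraries. At 48 h it was 38.2 in both KO libraries, against 24.3 and 26.9 in WT libraries. These groups were far apart, while at 24 h they nearly met, with 48.2 and 45.8 in KO libraries and 43.6 and 44.9 in WT libraries. The KO minus WT difference was 7.92 (SE 1.35, adjusted p = 0.00191) at steady state, 2.73 (SE 1.35, adjusted p = 0.0933) at 24 h and 12.6 (SE 1.35, adjusted p = 0.000209) at 48 h by limma's test over 79 segments. The steady state and 48 h calls held whichever library was left out.

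**Figure D2:**
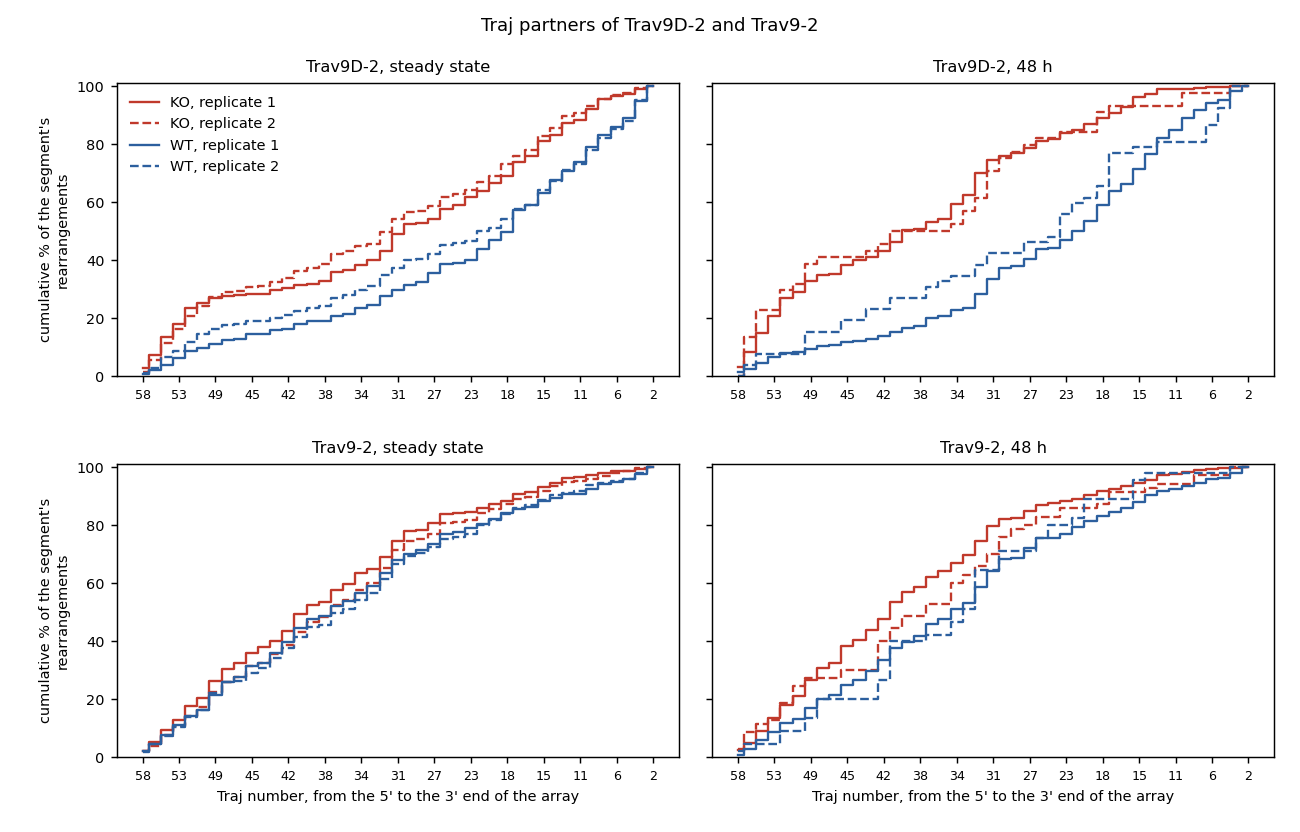
Cumulative percent of the rearrangements of Trav9D-2 (top) and Trav9-2 (bottom) along the Traj array from Traj58 to Traj2 (horizontal axis), at steady state (left) and 48 h (right), 1 line per library (solid for replicate 1, dashed for replicate 2). KO lines lie above WT lines for Trav9D-2 at both samplings and stay closer to them for Trav9-2; the dashed 48 h lines come from coarse tables.

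By windows of the Traj array, the 3′ end was the part most used by Trav9D-2 in all WT libraries at steady state and 48 h, and the part least used in both KO libraries at 48 h. The 3′ window (14 segments, Traj21 to Traj2) held 36.2% and 33.0% of Trav9D-2's rearrangements in KO libraries at steady state, against 56.1% and 49.9% in WT libraries. At 48 h it held 15.1% and 15.8% in KO libraries, against 50.0% and 40.4% in WT libraries. The 5′ window (13 segments, Traj58 to Traj42) held 43.1% and 45.6% in KO libraries at 48 h, against 13.8% and 23.1% in WT libraries. By group mean, the leading single partner at steady state was Traj56 in KO, with 6.35% and 6.10% of the segment's rearrangements in the 2 libraries, and Traj4 in WT, with 5.97% and 7.34%. In WT replicate 1 Traj17 was above Traj4, at 7.60%.

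Trav9D-1 and Trav9D-3 differed in the same direction. Trav9D-1 had a mean Traj number of 35.5 and 33.7 in KO libraries at steady state, against 30.2 and 27.7 in WT libraries, a difference of 5.63 (SE 1.50, adjusted p = 0.0114). At 48 h it had 39.0 and 37.7 in KO libraries, against 31.4 and 28.1 in WT libraries, a difference of 8.61 (SE 1.50, adjusted p = 0.00113). Its 24 h values of 46.3 and 46.8 in KO libraries and 42.0 and 44.5 in WT libraries did not pass (3.30, adjusted p = 0.0771). Trav9D-3, whose partners lay nearest the 3′ end in the family at steady state, had 29.9 and 27.8 in KO libraries, against 23.9 and 21.4 in WT libraries (6.17, SE 1.43, adjusted p = 0.00677). It passed at 24 h as well, with 47.4 and 48.5 in KO libraries against 41.4 and 40.6 in WT libraries (6.93, adjusted p = 0.0118), and at 48 h, with 33.1 and 32.2 in KO libraries against 25.3 and 28.6 in WT libraries (5.69, adjusted p = 0.00628). Neither segment's groups overlapped at any sampling.

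Trav9D-4 was the least even of the D copies. Its replicates stood far apart at steady state, at 34.6 and 28.5 in KO libraries and 29.0 and 22.9 in WT libraries, so that the groups overlapped and the difference of 5.59 (SE 2.68) did not pass (adjusted p = 0.0997). Same-numbered libraries deviated together at steady state, and with the replicate within its sampling as a block Trav9D-4 was called there (adjusted p = 0.0269), as was Trav9-4 (adjusted p = 0.0289), which made 6 of 8 members beside 49 of 79 segments (62%). At 24 h it had 41.6 and 38.7 in KO libraries and 35.9 and 39.4 in WT libraries, with overlap (2.55, adjusted p = 0.382). Only its 48 h values, 37.7 and 32.8 in KO libraries against 29.1 and 25.8 in WT libraries, passed (7.78, adjusted p = 0.0245). That call was lost without KO replicate 1 (5.37, adjusted p = 0.139) or WT replicate 2 (6.14, adjusted p = 0.131) at 48 h.

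At steady state and 48 h each counterpart without D had a smaller KO minus WT difference than its own D copy, as in 32 of the 33 pairs of the locus at steady state and 29 of 33 at 48 h. At 24 h this held for 1 of the 4 Trav9 pairs and 23 of 33. Trav9-1 had 35.7 and 34.5 in KO libraries at steady state, against 31.5 and 30.1 in WT libraries (4.29, SE 1.54, adjusted p = 0.0398). In the 24 h samples it had 45.4 and 46.7 in KO libraries against 40.0 and 42.7 in WT libraries (4.72, adjusted p = 0.0293). At 48 h it had 37.6 and 33.9 in KO libraries against 31.1 and 28.8 in WT libraries (5.83, adjusted p = 0.00775). KO was above WT without overlap in all 3. Trav9-2 passed at 24 h, with 44.3 and 48.3 in KO libraries against 39.5 and 40.4 in WT libraries (6.36, adjusted p = 0.0118), and at 48 h, with 38.8 and 36.6 in KO libraries against 33.5 and 33.9 in WT libraries (3.96, adjusted p = 0.030). At steady state, where it had 37.6 and 36.0 in KO libraries and 34.9 and 34.5 in WT libraries, it did not (2.03, adjusted p = 0.212).

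Trav9-3 and Trav9-4, the members with the highest shares, gave fewer calls. Trav9-3 passed at 24 h alone, with 44.2 and 46.0 in KO libraries against 39.5 and 40.3 in WT libraries (5.20, adjusted p = 0.0260). Its differences at steady state (2.49, adjusted p = 0.193) and 48 h (2.26, adjusted p = 0.225) did not pass. Trav9-4 passed at no single sampling. It had 36.1 and 36.6 in KO libraries against 30.9 and 33.0 in WT libraries at steady state (4.42, adjusted p = 0.0534). At 24 h it had 44.6 and 47.1 in KO libraries and 41.8 and 43.3 in WT libraries (3.28, adjusted p = 0.115), and at 48 h 37.2 and 38.1 in KO libraries and 31.9 and 37.3 in WT libraries (3.06, adjusted p = 0.127). WT replicate 2 at 48 h, a coarse table, was the high WT library for both. Without it the 48 h difference was 4.84 for Trav9-3 (adjusted p = 0.0156) and 5.79 for Trav9-4 (adjusted p = 0.010).

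**Figure D3:**
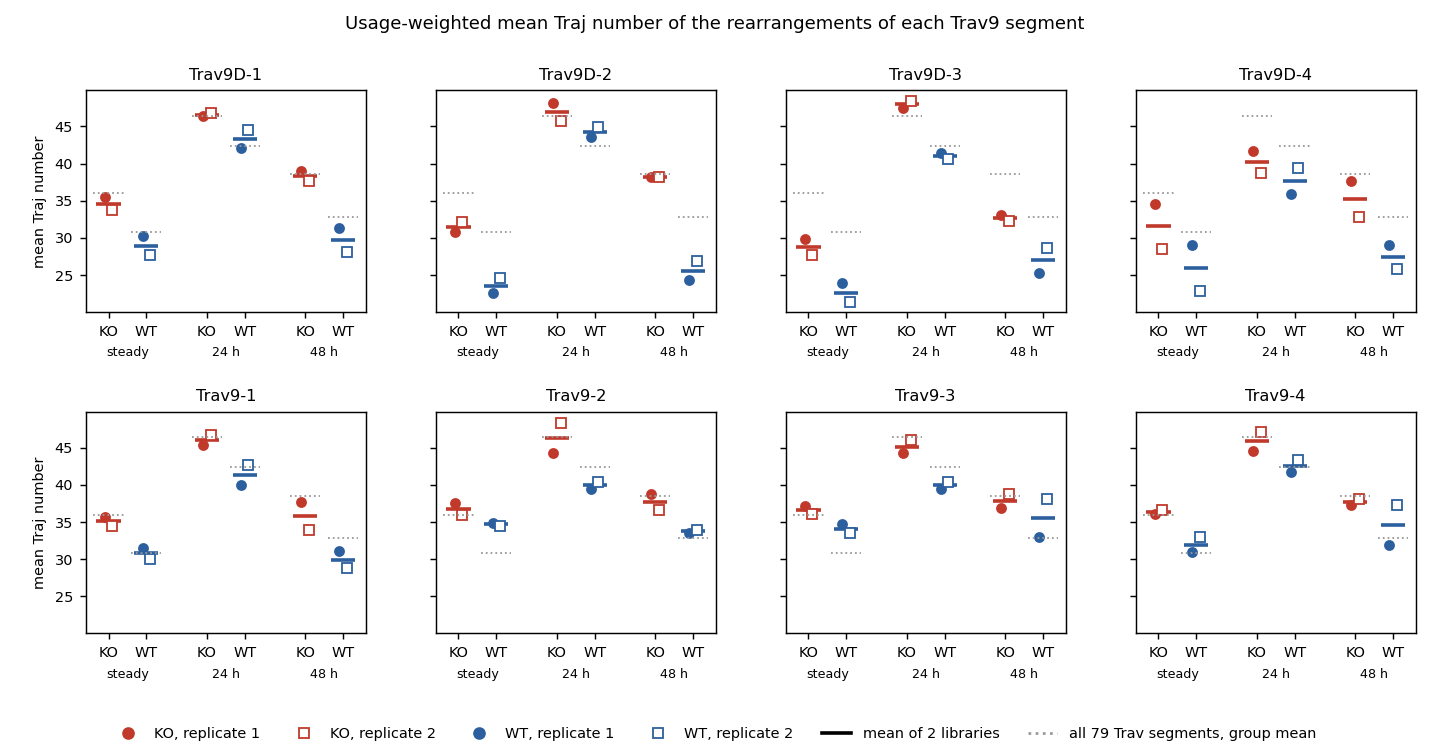
Usage-weighted mean Traj number (vertical axis, same scale in all panels, not from 0) of each Trav9 segment by genotype and sampling, with points for single libraries, solid lines for means of 2 libraries and dotted lines for the group mean of all 79 Trav segments. KO lies above WT at each sampling in the means of all 8 segments, and all segments are highest at 24 h. The D copies lie below the dotted line at steady state in both genotypes, and so, narrowly, does Trav9-1.

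In all, 4 of the 8 members were called in the steady state samples, 4 in those of 24 h and 6 in those of 48 h, every one with a higher mean Traj number in KO. Over all 79 segments the same test called 38 (48.1%), 37 (46.8%) and 55 (69.6%), also all higher in KO, so the members' counts are near those of the locus. The median difference was 5.0, 4.01 and 5.76 over the members and 4.87, 3.98 and 5.67 over the 79 segments. Over the mean of the 3 samplings 8 of 8 members were called, with differences of 3.32 for Trav9-3 to 7.74 for Trav9D-2, beside 74 of 79 segments (93.7%). Both KO libraries were above both WT libraries for 7, 7 and 6 of the 8 members at steady state, 24 h and 48 h, beside 97.5%, 86.1% and 83.5% of all segments.

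Single libraries decided part of these calls. At steady state Trav9D-1 and Trav9D-3 lost theirs without KO replicate 1 (adjusted p = 0.105 and 0.0787) or WT replicate 2 (0.104 and 0.0879), and Trav9-1 lost its call without any of the 4 steady state libraries (0.0740 to 0.202). The 4 calls at 24 h were all lost without KO replicate 2 (adjusted p = 0.0815 to 0.139) or WT replicate 1 (0.0527 to 0.188) at 24 h. At 48 h Trav9-1 lost its call without KO replicate 1 (adjusted p = 0.0680), and Trav9-2 without KO replicate 1, WT replicate 1 or WT replicate 2 (0.173, 0.0996 and 0.0597). With the percent of rearrangements in the 5′ window as the measure, 0 members and 0 of 79 segments were called at steady state, 3 members and 43 segments at 24 h and 2 members and 31 segments at 48 h.

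The D copies and their counterparts differed in their mean Traj number, some pairs far more than others. At steady state each D copy had a lower mean Traj number than its counterpart in all 4 libraries, in all 4 Trav9 pairs; of the other 29 pairs of the locus, 21 did so. Trav9D-2 minus Trav9-2 was -6.71 and -3.82 Traj numbers in KO libraries, against -12.4 and -9.92 in WT libraries. Trav9D-3 minus Trav9-3 was -7.33 and -8.26 in KO libraries at steady state, against -10.8 and -12.2 in WT libraries. In both pairs the gap was wider in every WT library than in either KO library. Trav9D-1 stayed close to Trav9-1, at -0.20 and -0.76 in KO libraries and -1.26 and -2.38 in WT libraries, and Trav9D-4 minus Trav9-4 was -1.54 and -8.05 in KO libraries and -1.89 and -10.0 in WT libraries. Trav9D-1 and Trav9-1 differ at 2 of 337 coding bases in the reference, and whether the reads separate them is unknown. The part of this in their small gap was not tested.

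Sampling changed these gaps. At 24 h Trav9D-3 minus Trav9-3 was 3.18 and 2.45 in KO libraries and 1.91 and 0.27 in WT libraries, all above 0. At 48 h it was -3.72 and -6.52 in KO libraries and -7.61 and -9.49 in WT libraries, all below 0. Trav9D-2 minus Trav9-2 was 3.82 and -2.48 in KO libraries and 4.08 and 4.53 in WT libraries at 24 h, and -0.67 and 1.61 in KO libraries against -9.19 and -7.09 in WT libraries at 48 h. The 48 h gap of Trav9D-2 was thus wide in both WT libraries. In KO it was small in replicate 1 and had the other sign in replicate 2, a coarse table.

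The KO minus WT difference of the gap, tested with limma over all 33 pairs, passed for Trav9D-2 at 48 h (8.61, SE 2.03, adjusted p = 0.0107), which was 1 of the 4 Trav9 pairs beside 12 of 33 (36.4%). It was lost without KO replicate 2 (7.46, adjusted p = 0.0522) or WT replicate 1 (7.56, adjusted p = 0.0694) at 48 h. At steady state Trav9D-2 (5.89, adjusted p = 0.0512) and Trav9D-3 (3.68, adjusted p = 0.0551) missed the threshold, and 1 of 33 pairs passed (3.03%). With the replicate within its sampling as a block both passed at steady state (adjusted p = 0.0321 each), beside 14 of 33 (42.4%). That fit also called Trav9D-3 at 48 h (3.43, adjusted p = 0.0280), beside 16 of 33 (48.5%). Same-numbered libraries did not deviate together in mean Traj number at 48 h (r = 0.02), so the block is not borne out there. Without the block Trav9D-3 missed the threshold at 48 h in limma's test (adjusted p = 0.0680). Over the mean of the 3 samplings Trav9D-2 (3.62, SE 1.17, adjusted p = 0.0231) and Trav9D-3 (2.95, SE 0.79, adjusted p = 0.0120) passed, beside 18 of 33 (54.5%). The call of Trav9D-2 was lost without any of 5 libraries (adjusted p = 0.0502 to 0.0683): KO replicate 2 or WT replicate 1 at steady state, WT replicate 1 at 24 h, and KO replicate 2 or WT replicate 1 at 48 h. This measure was chosen after the partner numbers of the members had been seen.

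**Figure D4:**
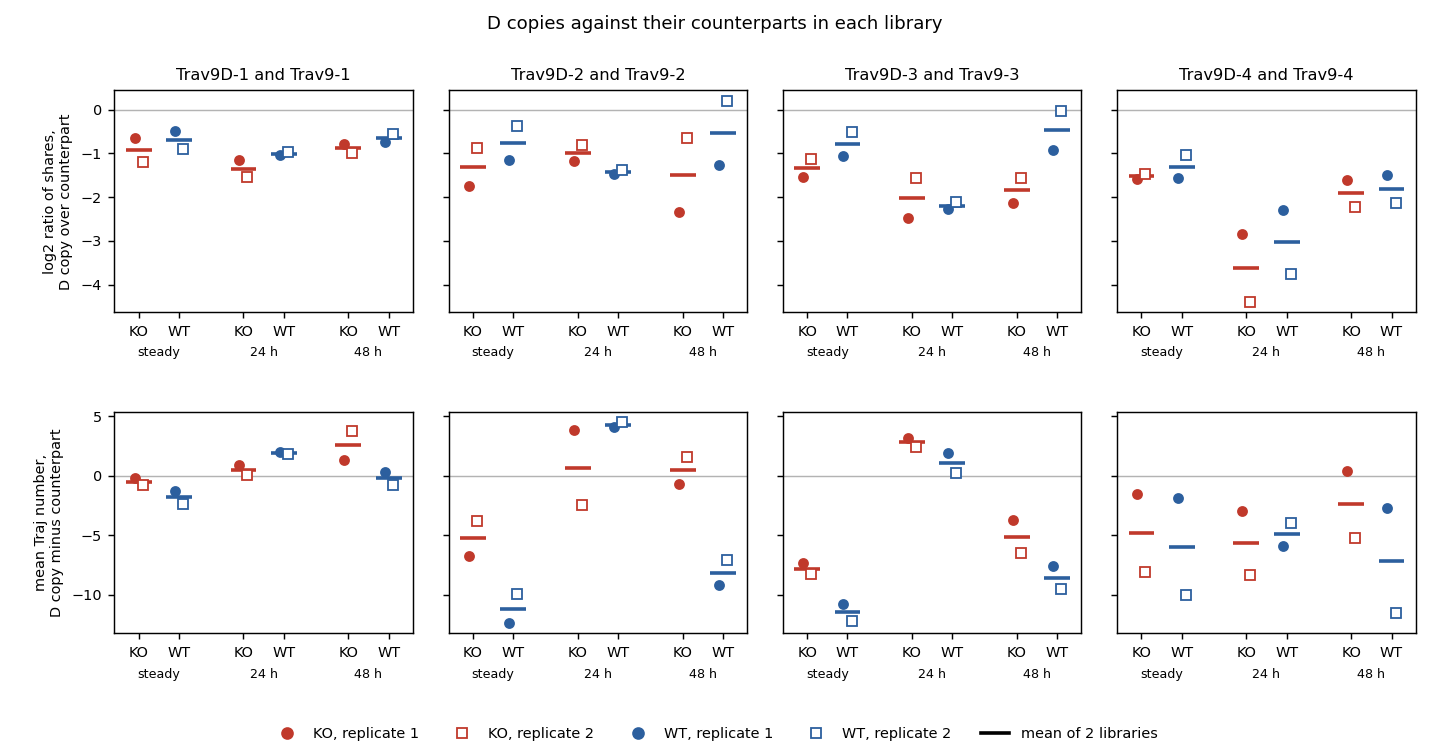
D copies against their counterparts in each library, as the log2 ratio of shares (top) and as the D copy's mean Traj number minus that of its counterpart (bottom), by genotype and sampling. Grey lines mark equal values, points are libraries and coloured lines are means of 2; nearly all ratios lie below 0, and the gap of Trav9D-2 at 48 h lies near 0 in KO and far below 0 in WT.

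Between samplings, Trav9D-4 was the 1 member whose share was called with all libraries in the fit. It took 0.352% and 0.365% in KO libraries and 0.446% and 0.376% in WT libraries at steady state. At 24 h it took 0.109% and 0.0880% in KO libraries and 0.171% and 0.181% in WT libraries, below all steady state values, and at 48 h 0.558% and 0.376% in KO libraries and 0.426% and 0.208% in WT libraries. Its share at 24 h minus steady state, averaged over the genotypes, was -1.47 on the log2 scale (SE 0.28, adjusted p = 0.0111 over 79 segments), where the median of all segments was -0.40, and it was the 1 member called among 17 of 79 segments (21.5%), of which 4 were higher (5.06%) and 13 lower (16.5%) at 24 h. Without KO replicate 2 at steady state the adjusted p was 0.0558. Without the coarse tables Trav9D-3 was called too (-1.29, adjusted p = 0.00346, against -0.50 with all libraries), beside 59 of 79 segments (74.7%).

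From 24 h to 48 h the share of Trav9D-4 rose in KO, with a log2 change of 2.11 (SE 0.39, adjusted p = 0.0464 in limma's test), the single call among 79 segments (1.27%), whose median change was 0.28. That call was lost without any of 10 of the 12 libraries (adjusted p = 0.0671 to 0.426); the 2 WT libraries at 48 h were the exceptions. It was also lost with a pseudocount of 0.1. In WT the change was 0.73 (adjusted p = 0.362), and 0 of 8 members were called beside 1 of 79 segments (1.27%), with 0 members and 13 of 79 segments at an unadjusted p under 0.05. Without the coarse tables Trav9D-4 (1.27, adjusted p = 0.00780) and Trav9D-3 (1.41, adjusted p = 0.0177) were called in WT, beside 46 of 79 segments (58.2%). The KO and WT changes were not shown to differ: the difference for Trav9D-4 was 1.38 (SE 0.55, adjusted p = 0.995), and 0 of 79 segments were called (0%).

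The partners of all 8 members shifted to the 3′ side between 24 h and 48 h. The mean Traj number at 48 h minus 24 h, averaged over the genotypes, ran from -14.6 (Trav9D-3) to -5.85 (Trav9-3), and 8 of 8 members passed beside 77 of 79 segments (97.5%). It was -13.7 (SE 0.95) for Trav9D-2 and -7.40 (SE 1.01) for Trav9-2. The gap of Trav9D-3 to Trav9-3 changed by -8.79 over the same interval (SE 0.96, adjusted p = 4.48e-05) and that of Trav9D-2 to Trav9-2 by -6.32 (SE 1.44, adjusted p = 0.00463), 2 of 4 Trav9 pairs beside 17 of 33 (51.5%). The share ratio of D copy over counterpart rose between 24 h and 48 h for Trav9D-3 (0.95, SE 0.32, adjusted p = 0.0383) and Trav9D-4 (1.45, SE 0.44, adjusted p = 0.0353), beside 14 of 33 pairs (42.4%). Leaving out any 1 library left 0 or 1 of these ratio calls, and none remained in a fit of the 24 h and 48 h groups alone.

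The partners of the segments were set against their place in the array. The 8 rows stand 12th, 22nd, 25th, 30th, 46th, 56th, 59th and 65th among the 79 shared rows, in the order Trav9D-1 to Trav9D-4 and then Trav9-1 to Trav9-4. Across all 79 segments, which share libraries and depth, Spearman's rho of row order with the mean Traj number was 0.76 in KO and 0.84 in WT at steady state, 0.32 in KO and 0.49 in WT at 24 h, and 0.50 in KO and 0.77 in WT at 48 h. Over the 8 members alone rho was 0.74 in KO and 0.74 in WT at steady state, -0.62 in KO and -0.43 in WT at 24 h, and -0.24 in KO and 0.83 in WT at 48 h, so its sign turned in 3 of the 6 groups. At steady state the relation was not a straight line: mean Traj numbers climbed over the first rows, dropped in the rows around Trav9D-2 and Trav9D-3 and climbed again to the last rows. Within the family Trav9D-3 ranked 73rd of 79 in KO and 77th in WT at steady state, while Trav9-2 ranked 22nd in KO and 21st in WT. At 24 h Trav9D-3 ranked 18th in KO and 48th in WT.

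**Figure D5:**
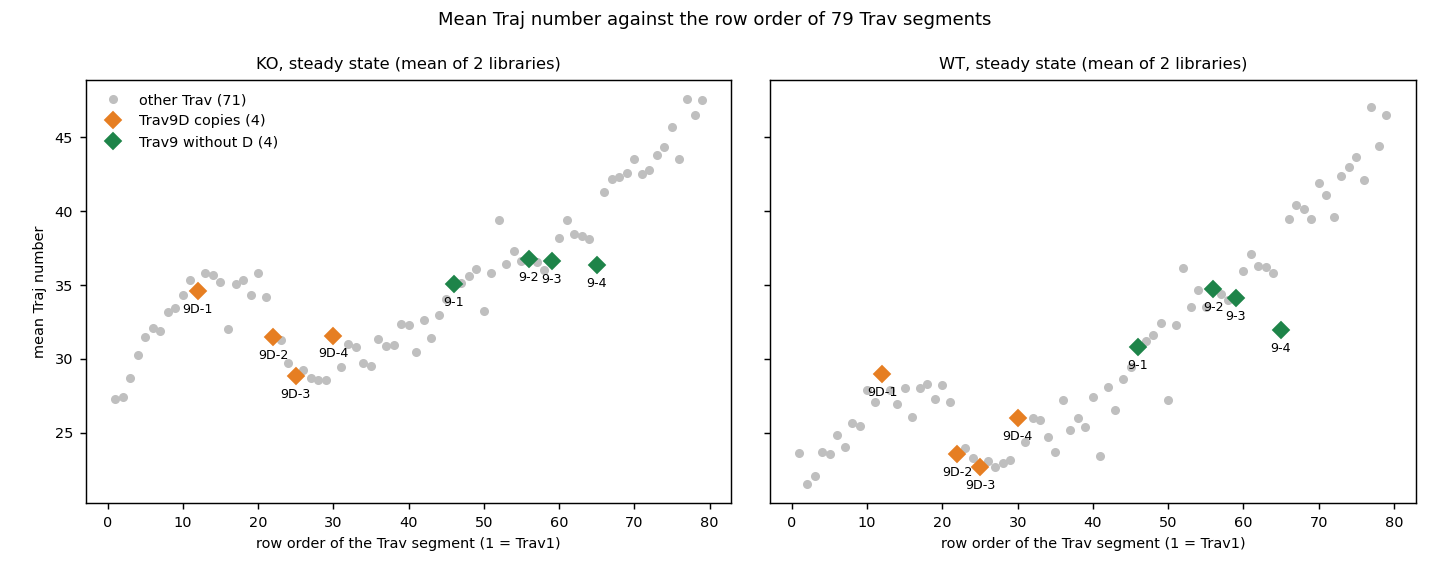
Mean Traj number (vertical axis, not from 0) of the 79 Trav segments against their row order (horizontal axis, 1 = Trav1) at steady state in KO (left) and WT (right), each point the mean of 2 libraries. Trav9D copies are orange, Trav9 segments without D green and all others grey; Trav9-4 lies below both of its neighbours and Trav9D-4 above both of its own, in both genotypes.

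The members' mean Traj numbers were also set beside those of the neighbouring rows. At steady state Trav9D-2 had a group mean of 31.5 in KO and 23.6 in WT. The row before it, Trav15D-1-DV6D-1, had 34.2 in KO and 27.1 in WT, and the row after it, Trav4D-3, had 31.3 in KO and 24.0 in WT. Trav9D-3, at 28.8 in KO and 22.7 in WT, stood by Trav12D-2 at 29.7 in KO and 23.3 in WT and Trav12D-3 at 29.2 in KO and 23.1 in WT. Trav9-4 was below both of its neighbours: it had 36.4 ± 0.323 in KO and 31.9 ± 1.45 in WT (SD, n = 2), against 38.1 in KO and 35.8 in WT for Trav3-3 and 41.3 in KO and 39.5 in WT for Trav4-4-DV10. Trav9D-4 was above its neighbours, at 31.6 ± 4.28 in KO and 26.0 ± 4.31 in WT, against 28.6 in KO and 23.1 in WT for Trav3D-3 and 29.4 in KO and 24.4 in WT for Trav4D-4, but its replicates differed by more than that. These comparisons with neighbours are descriptions and were not tested.

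Over the 12 libraries, which share 6 groups and the 2 kinds of table, the log2 shares of Trav9-2, Trav9-3 and Trav9-4 moved together, with Pearson's r of 0.83 to 0.89. Trav9D-2 and Trav9D-3 moved together as well (r = 0.79), while Trav9D-4 did not follow either (r = -0.33 and 0.20). A D copy was not most like its own counterpart: r was 0.37 for pair 1, -0.0012 for pair 2, 0.36 for pair 3 and -0.04 for pair 4. Outside the family the segment most like Trav9D-2 was Trav4D-3, its next row (r = 0.91), and the one most like Trav9D-3 was Trav8D-2 (r = 0.94). For Trav9D-4 it was Trav7-1 (r = 0.90), and for Trav9D-1 Trav7D-4 (r = 0.64). Trav13-4-DV7 was the nearest to Trav9-1 (r = 0.49), Trav9-2 (r = 0.75) and Trav9-4 (r = 0.78), and Trav14-3 to Trav9-3 (r = 0.81).

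Single pairs of a Trav9 and a Traj segment gave no call. Of the 344 Trav9 pairs among 3397 tested with limma, 0 were called between KO and WT at steady state (all pairs: 0.294%), at 24 h (0%), at 48 h (0%) or over their mean (1.09%), with 5, 25, 58 and 30 of the 344 at an unadjusted p under 0.05, beside 211, 187, 510 and 533 of all 3397. With the coarse tables left out, 12 of the 344 Trav9 pairs were called at steady state, 20 at 48 h and 61 over the mean, beside 366 (10.8%), 678 (20%) and 1248 (36.7%) of all 3397. The 5 pairs with the highest mean share were all of Trav9-4: with Traj49 (0.0759%), Traj52 (0.0736%), Traj48 (0.0687%), Traj50 (0.0676%) and Traj32 (0.0632%). Trav9-4 with Traj52 took 0.0349% and 0.0417% in KO libraries at steady state, against 0.0322% and 0.0262% in WT libraries. At 48 h it took 0.0616% and 0.0879% in KO libraries, against 0.0241% and 0.0189% in WT libraries. KO was above WT in both samplings. Of the 5 pairs only this one is given by library, and with all libraries in the fit it was called at neither sampling. At 24 h the replicates differed more, at 0.0739% and 0.193% in KO libraries and 0.0589% and 0.230% in WT libraries.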

How the data were processed

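Tcra transcripts of 12 libraries (2 genotypes, 3 samplings, 2 libraries a group) were amplified by template-switch RACE with a primer in the constant segment Trac, per the labels' protocols. Each deposited table gives, per the file headers and the values, a fraction of the repertoire for every combination of Trav (rows) and Traj segment (43 columns). The sources used here do not say which aligner and build the authors used or whether reads, molecules or clonotypes were counted. Depth is unknown, so no counting interval was computed. Fractions were divided by the table's own total, written as percent and summed per Trav segment. Comparisons used the 79 segments listed in every table, which held 95.2% to 99.7% of each total; 2 tables also have blank lines (7 and 5), which hold no values.

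With limma 3.58.1 (R 4.3.3), a linear model over the 12 libraries gave each group its own mean, on log2(percent + 0.01), which understates changes of low shares, or on the usage-weighted mean Traj number. Benjamini-Hochberg adjustment at 0.05 ran over 79 segments, 19 families, 33 pairs of a D copy and its counterpart, or 3397 Trav-Traj pairs. The fits were tested on simulated data. The text names every Trav9 row, the 5 Trav9 pairs with the highest mean share, the nearest rows outside the family and the segments with the highest correlation; called Trav9 pairs would have been named too, and there were none. Correlations across segments are descriptions. Sequences were read from GENCODE M21 transcripts and aligned with Biopython 1.88. The members and lists were chosen with earlier results of these data known.

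The replicate numbers come from the labels. Deviations of same-numbered KO and WT libraries correlated over the 79 shares with r of 0.72 (steady state), 0.93 (24 h) and 0.93 (48 h), so for shares the numbers were treated as pairing the libraries within a sampling; over mean Traj numbers r was 0.84, 0.09 and 0.02, above 0.1 at steady state only, and the fit without the block was kept with blocked values beside the steady state results. At 24 h and 48 h replicate 2 was the coarse table in both genotypes. The pairing there cannot be told apart from the kind of table. Alternatives were other pseudocounts, scalings and filters, replicate blocks, only the groups compared, other partner measures, and leaving out each library or the 4 coarse tables. The block within a sampling and the gap in mean Traj number were added after the data had been seen.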

Additional observations from a re-analysis of the deposited data

Results flagged for a closer look

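The effect of genotype on partner choice differed between some D copies and their counterparts, in the family as elsewhere in the locus. The KO minus WT difference in mean Traj number was larger for Trav9D-2 than for Trav9-2 by 8.61 at 48 h (adjusted p = 0.0107 by limma over 33 pairs) and by 3.62 over the mean of the 3 samplings (adjusted p = 0.0231). It was larger for Trav9D-3 than for Trav9-3 by 2.95 over the mean of the 3 samplings (adjusted p = 0.0120). The same test called 12 of 33 pairs at 48 h (36.4%) and 18 of 33 over the mean (54.5%). The Trav9 counts, 1 of 4 and 2 of 4, are not above those shares. Over the mean the difference was positive in 33 of 33 pairs. The call of Trav9D-2 over the mean was lost without certain single libraries, as given above. The measure was chosen after the members' partner numbers had been seen. The 48 h value of Trav9D-2 rests on 2 libraries a genotype, of which replicate 2 of each is a coarse table with 22 Traj partners above 0 in KO and 23 in WT, against 39 and 43 in replicate 1. Whether the coarseness of these tables bears on the difference was not tested beyond leaving them out, which keeps 1 library a genotype at 48 h. In replicate 1 the 48 h mean Traj number of Trav9D-2 was 38.2 in KO and 24.3 in WT. That of Trav9-2 was 38.8 in KO and 33.5 in WT. Without KO replicate 2 or WT replicate 1 at 48 h, the 48 h call was lost (adjusted p = 0.0522 and 0.0694).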

How the results depend on the processing

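Counts are of Trav9 members (or their pairs) called. Where the count over all features in the same fit is not given beside them, a rise or fall is not a result about the family. Over the alternatives for single member values (2696 values), 74 lost and 51 gained a call, none reversed while called, and 98 changed sign while called under neither setting. With the replicate block within sampling, share calls became 4 at 48 h (28 of all 79 segments) and 1 over the mean (34 of 79). Ratio calls of D copy over counterpart became 2 at 48 h (18 of all 33 pairs) and 3 over the mean (23 of 33). Gap calls in mean Traj number became 2 at steady state (14 of 33) and 2 at 48 h (16 of 33). For mean Traj number, same-numbered libraries deviated together at steady state but not at 24 h or 48 h. In that measure the block called 6, 5 and 6 members at steady state, 24 h and 48 h in place of 4, 4 and 6. At steady state it called 49 of all 79 segments. A replicate block by number alone gave 1 ratio call at 48 h. No other member's KO minus WT call for a share or a ratio changed with a block. With only the groups compared, the 48 h minus 24 h share call in KO and the ratio calls over the same interval went to 0, and mean Traj number gave 7 at steady state. A pseudocount of 0.1 gave 0 for the KO share change and 1 Trav9 pair at steady state and 1 over the mean. The percent in the 5′ window gave 0 at steady state and 2 at 48 h. Without the 4 coarse tables, where each 24 h and 48 h group keeps 1 library that is assumed to vary like the steady state groups, calls were 2 for the WT change from 24 h to 48 h, 2 for 24 h minus steady state, 1 for the mean ratio, 7 for mean Traj number at steady state and at 24 h, 12, 20 and 61 for pairs at steady state, 48 h and over the mean, and 2 for the gap at steady state and 48 h. Leaving out 1 library at a time gave 0 to 1 call for the KO change and for 24 h minus steady state, 0 to 1 for the ratio from 24 h to 48 h, 1 to 5, 0 to 5 and 3 to 6 for mean Traj number at steady state, 24 h and 48 h, 0 to 3, 0 to 41 and 0 to 10 for pairs at steady state, 48 h and over the mean, and 0 to 2, 0 to 2 and 1 to 2 for the gap at steady state, 48 h and over the mean. Counts over all features moved by more than 1.5 times as well. For the change from 24 h to 48 h (1 segment in KO and 1 in WT), the centred scale called 6 and 6, the replicate block 5 and 8, only the groups compared 0 and 0, and 31 and 46 were called without the coarse tables. For 24 h minus steady state (17 segments), the replicate block called 33, only the groups compared 27, and 59 were called without the coarse tables. Pairs at steady state (10) went to 0 with a pseudocount of 0.001 or the filter and to 60 with 0.1, and over the mean (37) to 2, 1 and 98; leaving out the coarse tables gave 366 at steady state, 678 at 48 h and 1248 over the mean. The causes were not tested. Of all pairs, 43.5% to 56.7% stand at 0 in a coarse table, and the depth in reads is unknown.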

Other observations

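The number of Traj partners seen with a member depended on the table. At steady state each member was joined to 41 to 43 of the 43 Traj segments in every library. In the coarse tables Trav9D-4 had 8 partners in KO and 17 in WT at 24 h, and 20 in KO and 12 in WT at 48 h, against 30, 37, 43 and 43 in replicate 1 of these groups. The difference moves with the table, and its part in the spread of Trav9D-4 was not tested.

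The middle window of the Traj array (16 segments, Traj40 to Traj22) held 60.9% ± 9.29 of the rearrangements of Trav9D-3 in KO at 48 h and 49.4% ± 7.16 in WT, and 45.5% ± 0.635 in KO and 34.5% ± 3.50 in WT at steady state (SD, n = 2). At 24 h the 5′ window (13 segments, Traj58 to Traj42) held 78.1% ± 3.46 in KO and 55.9% ± 2.21 in WT of that segment's rearrangements. In KO, Traj58, the most 5′ segment listed, then took 13.8% and 20.8% of the rearrangements of Trav9D-3, and Traj56 took 14.99% and 19.5%. In WT, Traj57 took 9.20% and 6.79%, and Traj56 took 5.75% and 9.73%. The leading partner differed between the replicates of each genotype. At steady state Traj31 had the highest group mean for Trav9-1 in both genotypes, with 6.04% and 6.76% in KO libraries and 4.66% and 4.89% in WT libraries. For Trav9-2 the highest group mean was that of Traj31 in KO, with 5.30% and 6.14%, and of Traj49 in WT, with 5.18% and 5.79%. These partners did not lead in every library: in KO replicate 1 Traj49 took 5.91% of Trav9-2, and in WT replicate 1 Traj40 took 4.74% of Trav9-1. The middle window and the leading partners within a member were not tested.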
